A study of Mus musculus with 8 samples.

Results

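The epithelial-to-mesenchymal transition (EMT) factors Zeb1, Zeb2, Snai1, Snai2 and Twist1, the epithelial regulators Grhl2, Ovol1, Esrp1 and Esrp2, and the mesenchymal filament gene Vim were examined in 4T1 cells given acetate or vehicle. These 10 genes were picked by name, and all 10 were found among the 20189 genes of the RNA-sequencing table. 4T1 is an established mouse mammary carcinoma line. The wild-type line was grown in DMEM with 10% serum and exposed for 48 h to acetate at 5 mM or to water alone (vehicle), giving 4 libraries in each arm. Libraries 1 to 4 of each arm carry the same 4 experiment codes, and the study describes its replicates as independent experiments, so vehicle 1 and acetate 1 form a pair, and so on. All cells are of 1 line and no other line was treated here.

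In EMT, epithelial cells lose cell-cell junctions and acquire a motile, vimentin-rich state. ZEB, SNAIL and TWIST proteins drive the change by binding E-box sequences and repressing junction genes such as Cdh1, which encodes E-cadherin. GRHL2 and OVOL1 are transcription factors that act in the opposite direction, in part by repressing ZEB genes, and ESRP1 and ESRP2 are RNA-binding proteins that maintain epithelial splice forms. The study asked how acetate, a source of acetyl-CoA for histone acetylation, changes transcription in these cells. The contrast below sets the EMT drivers against the epithelial factors.

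Values are reads per gene after each library was scaled to the same total of 20000000 reads, called units here, and 1 read was worth 0.682 to 1.01 units, since the libraries held 19895088 to 29305620 reads. Both libraries numbered 1 stood apart from the rest: over the 10292 genes with a mean of at least 100 units, replicate 1 was the highest or the lowest of the 4 replicates in 85.8%. In any gene 2 of the 4 places are extreme, so a replicate that did not stand apart would often hold one too. Replicate 1 was over 4-fold from the mean of the other replicates in 265 of these genes. Replicates 2 to 4 were so in 2, 0 and 46. Epithelial markers were abundant in every library, the 6 genes Epcam, Cdh1, Krt7, Krt8, Krt18 and Krt19 adding up to 56725 to 75159 units with vehicle and 61364 to 76026 with acetate. Among markers of other cells, no endothelial gene of the 3 in the table (Cdh5, Pecam1 and Tek) exceeded 6 reads, and 0 of them were called by limma. Of the epithelial markers, Krt19 (log2 change 0.40, limma adjusted p = 2.54e-04) and Cdh1 were called higher with acetate and Epcam was not called (0.07, adjusted p = 0.154). Of the 5 fibroblast markers in the table, Pdgfra and Pdgfrb were called higher with acetate, and the summed level of the 5 ran from 231 to 1528 units with vehicle and from 397 to 2006 with acetate. Nearly all of that sum was Pdgfra, at 229 to 1496 units with vehicle and 388 to 1961 with acetate. Pdpn of the same list had at most 2 reads. The 4 leukocyte markers in the table added up to 93.1 to 203 units with vehicle and 100.5 to 214 with acetate. Most of that was Cd68, at 66.7 to 191 units and not called (0.02, limma adjusted p = 0.952). Csf1r was called higher, at 9.55 to 17.9 units with vehicle and 21.7 to 35.5 with acetate, while Ptprc had at most 4 reads and Lyz2 at most 3. Lum and Col3a1 of the fibroblast list were not analysed here. The part of these cells or markers in the results below was not tested, and in bulk libraries fewer cells of a type and less RNA per cell cannot be told apart.

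Of the 10 genes, Vim alone differed between acetate and vehicle past the threshold, and it was lower with acetate. Each of the 5 drivers and 4 epithelial factors missed the threshold. For all 10 genes the vehicle and acetate libraries overlapped in level, as for most genes: over the whole table the groups did not overlap in 1.65%. The test was limma on log2(units + 1) with the replicate number as a block, fitted to all genes, with an adjusted p under 0.05 as the threshold. It called 8.64% of all genes, 5.99% higher and 2.65% lower with acetate, beside 1 of 10 here. Log2 changes below are acetate minus vehicle on the log2(units + 1) scale, which understates changes of genes with few reads.

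**Figure D1:**
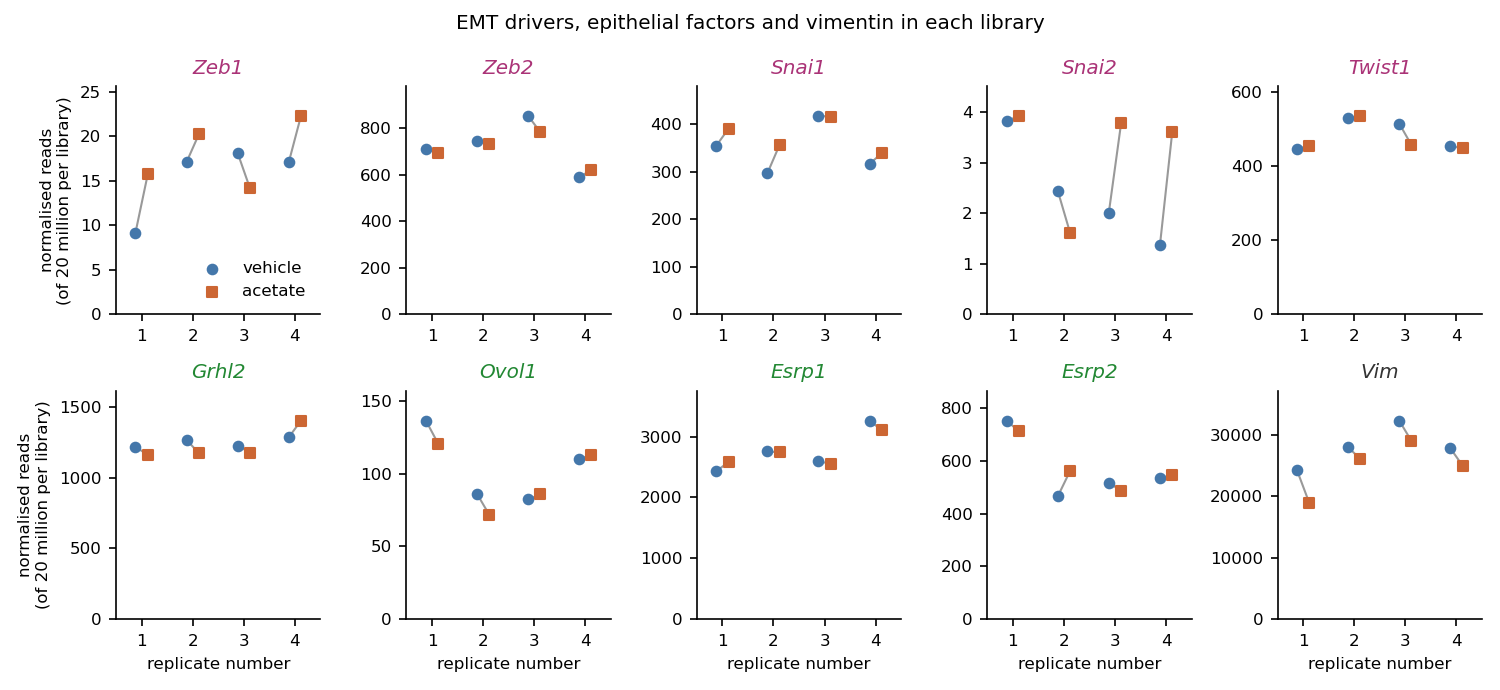
Level of each of the 10 genes (units, reads scaled to 20000000 per library) in the vehicle (circles) and acetate (squares) library of each replicate number, with a line joining the pair. Vim is lower with acetate in 4 of 4 pairs, while each of the other genes moves in both directions among its pairs.

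Vimentin, encoded by Vim (ENSMUSG00000026728, GRCm38 chromosome 2, 13573927 to 13582826, plus strand), is the type III intermediate filament protein of mesenchymal cells and the usual marker of EMT. In the vehicle libraries 1 to 4 it stood at 24236, 28025, 32341 and 27849 units. In the acetate libraries it stood at 18911, 26045, 29013 and 24997 units. The acetate library was the lower of every pair, and acetate 1 was the lowest of all 8, but vehicle 1 lay below acetate 2, 3 and 4, so the groups overlapped. The mean was 28113 ± 3316 units (SD, n = 4) with vehicle and 24741 ± 4242 with acetate. Over the whole table, 11.4% of genes were lower in 4 of 4 pairs.

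The pairs differed by -0.36, -0.11, -0.16 and -0.16 on the log2 scale, and the fitted change was -0.19 (SE 0.04, 95% confidence interval -0.27 to -0.11, limma adjusted p = 0.00781). This is 0.874 times the vehicle level, a fall by 12.6%. The change had the same sign under every alternative run, but it was not called without the block (adjusted p = 1.00), nor in the blocked fit without replicate 3 (-0.21, adjusted p = 0.0791) or without replicate 4 (-0.21, adjusted p = 0.0692). Without replicate 1 it was -0.14 (adjusted p = 0.00914) and without replicate 2 -0.22 (adjusted p = 0.0291). The recovered reads behind the value were 24097 to 40807 per library, between 0.0946% and 0.162% of all reads, so counting error was small beside the spread between replicates.

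The 250 bases upstream of the Vim start in RefSeq (GRCm38.p6, chr2:13574061-13574310, plus strand) are shown because Vim is the 1 gene of the 10 that was called. Capitals mark a TATAAA motif, which begins 32 bases before the start, and every CANNTG E-box, of which this window holds 0.
Vim: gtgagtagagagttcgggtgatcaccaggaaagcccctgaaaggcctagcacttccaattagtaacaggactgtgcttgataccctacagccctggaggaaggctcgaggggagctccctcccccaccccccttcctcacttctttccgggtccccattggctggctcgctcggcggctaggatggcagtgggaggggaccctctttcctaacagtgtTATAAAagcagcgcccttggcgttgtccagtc
TATAAA was found on either strand in 12.4% of 32851 promoter windows of this length, and CANNTG in 66.2%. Neither GGGCGG nor TGANTCA, found in 32.7% and 6.75% of windows, was in this one.

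Among the drivers, Snai1 (ENSMUSG00000042821, chromosome 2, 167538195 to 167542814, plus strand) encodes SNAIL, a zinc finger repressor of Cdh1. Its vehicle libraries 1 to 4 held 354, 296, 417 and 316 units, and its acetate libraries 390, 356, 415 and 338.5. Acetate was the higher in 3 pairs and level with vehicle in the third, where the pair differed by -0.01. The means were 346 ± 53.3 units with vehicle and 375 ± 34.3 with acetate (SD, n = 4). The change was 0.12 (SE 0.06, limma adjusted p = 0.227), with an interval from -0.0539% to 18.8%.

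Snai2 (ENSMUSG00000022676, chromosome 16, 14705852 to 14709385, plus strand) encodes SLUG, the second SNAIL protein. It was close to the floor of detection, with 2 to 5 reads per library: 3.8, 2.4, 2.0 and 1.4 units with vehicle and 3.9, 1.6, 3.8 and 3.6 with acetate. The change of 0.31 (SE 0.36, limma adjusted p = 0.677) had an interval from -0.47 to 1.10, on both sides of 0, so no difference was detectable at this depth. Per length, Snai1 stood at 116 to 289 times Snai2 within the same library.

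The promoter windows of Zeb2 and Twist1, scanned in the same way, held 0 CANNTG E-boxes and are not shown. The 250 bases upstream of Snai1 (RefSeq GRCm38.p6, chr2:167537945-167538194, plus strand) are given beside those of Vim because they hold 1. It is in capitals and begins 126 bases before the start.
Snai1: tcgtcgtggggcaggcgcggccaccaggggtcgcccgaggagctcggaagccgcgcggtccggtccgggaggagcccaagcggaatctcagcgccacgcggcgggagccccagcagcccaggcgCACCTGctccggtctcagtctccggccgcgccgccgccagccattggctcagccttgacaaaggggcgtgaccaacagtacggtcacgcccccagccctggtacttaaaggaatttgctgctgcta
Its letters CACCTG, with the reverse complement CAGGTG, are the form of CANNTG that ZEB and SNAIL proteins are known to bind, and 17.2% of all promoter windows hold it. The letters describe the window and say nothing of binding in these cells.

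Of the ZEB genes, Zeb2 (ENSMUSG00000026872, chromosome 2, 44983632 to 45117395, minus strand) encodes a zinc finger and homeodomain repressor, and had 830 to 930 reads per library. Its vehicle libraries held 710, 744, 853.5 and 590 units and its acetate libraries 694, 731, 783 and 619.5. Replicate 4 was lowest and replicate 3 highest in both arms. The means were 724 ± 108 and 707 ± 68.8 units (SD, n = 4), and the change was -0.03 (SE 0.04, limma adjusted p = 0.773, interval -8.10% to 4.64%).

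Zeb1 (ENSMUSG00000024238, chromosome 18) encodes the second ZEB repressor. It had 12 to 31 reads per library, with 9.2, 17.1, 18.1 and 17.1 units with vehicle and 15.7, 20.2, 14.2 and 22.3 with acetate. Vehicle 1 lay below the other 7 libraries, and pair 3 went the other way from the rest. The change was 0.24 (SE 0.24, limma adjusted p = 0.609, interval -0.28 to 0.77). Per length, Zeb2 stood at 14.3 to 39.9 times Zeb1 within a library, with a median of 22.6.

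Twist1 (ENSMUSG00000035799, chromosome 12, 33957671 to 33959829, plus strand) encodes a basic helix-loop-helix factor of the mesoderm. Vehicle held 445, 527, 514 and 453 units and acetate 454, 535, 456 and 447. Pairs 1, 2 and 4 differed by 0.03, 0.02 and -0.02 on the log2 scale, and pair 3 by -0.17. The means were 485 ± 41.7 and 473 ± 41.3 units (SD, n = 4), with a change of -0.04 (SE 0.05, limma adjusted p = 0.748) and an interval from -9.53% to 5.23%.

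**Figure D2:**
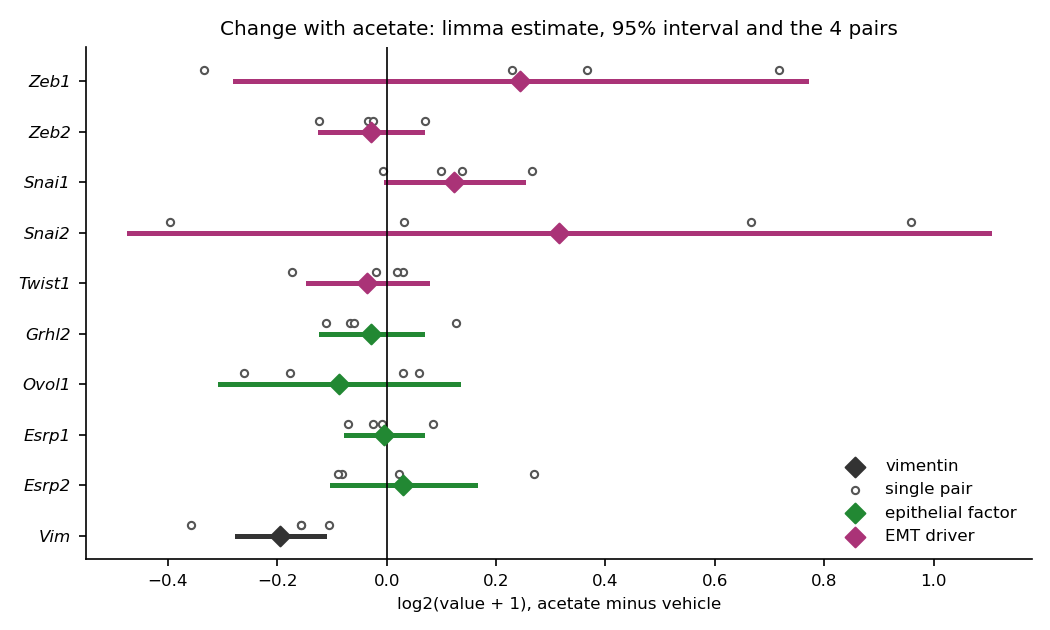
Log2 change with acetate (acetate minus vehicle, log2 of units + 1) for each gene: the diamond is the limma estimate, the bar its 95% confidence interval, and open circles are the 4 pairs, some of which lie on each other. The Vim interval alone lies to the side of 0, and the bars of Zeb1 and Snai2, the genes with the fewest reads, are the widest.

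Among the epithelial transcription factors, Grhl2 (ENSMUSG00000022286, chromosome 15, 37233036 to 37363569, plus strand) encodes a grainyhead factor that activates junction genes. Vehicle libraries held 1216, 1266, 1225 and 1284 units and acetate libraries 1162, 1172, 1176 and 1402. Acetate was lower in 3 pairs and higher in pair 4, whose acetate library lay above all others. The means were 1248 ± 32.6 and 1228 ± 116 units (SD, n = 4), and the change was -0.03 (SE 0.04, limma adjusted p = 0.772, interval -7.94% to 4.53%).

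Ovol1 (ENSMUSG00000024922, chromosome 19, 5549136 to 5560646, minus strand) encodes a zinc finger repressor of mesenchymal genes. Vehicle held 137, 86.3, 82.4 and 111 units and acetate 121, 71.9, 85.9 and 113. Replicates 1 and 4 were above replicates 2 and 3 in both arms, a larger separation than any within a pair. The means were 104 ± 25.1 and 97.9 ± 22.9 units (SD, n = 4), with a change of -0.09 (SE 0.10, limma adjusted p = 0.677, interval -19.0% to 9.48%).

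The splicing regulator Esrp1 (ENSMUSG00000040728, chromosome 4, 11331933 to 11386783, minus strand) was the most abundant of the 4 epithelial factors. Vehicle held 2433, 2758, 2597 and 3264 units and acetate 2581, 2741, 2553 and 3107. The pairs went both ways, and replicate 4 was the highest in both arms. The means were 2763 ± 359.5 and 2746 ± 255 units (SD, n = 4), and the interval of the change, -5.01% to 4.57%, was the narrowest among the 9 drivers and factors (limma adjusted p = 0.960).

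Its paralog Esrp2 (ENSMUSG00000084128, chromosome 8, 106130319 to 106136974, minus strand) held 752, 465, 517 and 536 units with vehicle and 711, 561, 486 and 544 with acetate. Both libraries numbered 1 were above the other 6. The means were 567 ± 127 and 575 ± 95.9 units (SD, n = 4), with a change of 0.03 (SE 0.06, limma adjusted p = 0.828, interval -6.65% to 11.8%). Per length Esrp1 exceeded Esrp2 in every library, by 2.23 and 2.499 times in replicate 1 and by up to 4.19 times elsewhere. Nfatc3, annotated on the opposite strand and overlapping Esrp2, was at 2438 to 3146 units, and since the strand used in counting is not given in the sources used here, reads of the overlap cannot be assigned with certainty. Antisense genes overlapping Zeb2, Grhl2 and Ovol1 had far fewer reads, the highest being Gm16136 over Grhl2 at 21.97 to 58.9 units.

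Contrasted as groups, 3 of 5 drivers and 1 of 4 epithelial factors had a positive estimate, and 0 of either passed the limma test at an adjusted p under 0.05. At an unadjusted p under 0.05 the count was also 0, and edgeR and DESeq2 called 0 of these 9 genes as well. The median change was 0.12 for the drivers and -0.02 for the epithelial factors, against 0.02 over all genes. The mean of the drivers exceeded that of the epithelial factors by 0.24, 0.05, 0.03 and 0.27 in pairs 1 to 4. The mean change was 0.12 for all 5 drivers and 0.02 for the 3 with over 100 reads per library (Zeb2, Snai1 and Twist1). In pairs 1 to 4 the mean of all 5 was 0.18, 0.02, 0.01 and 0.29. The mean of the 3 was 0.05, 0.09, -0.10 and 0.05. Without Zeb1 and Snai2 the mean of the drivers was thus lower in pairs 1, 3 and 4 and higher in pair 2. Over the 4 pairs the difference between the means of all 5 drivers and of the epithelial factors averaged 0.15 (SD 0.12), and it was not tested. The intervals of the 7 genes other than Zeb1, Snai2 and Vim together ran from -19.0% (Ovol1) to 18.8% (Snai1). These are limits for single genes and do not give the precision of the group difference, so no opposite movement of drivers and epithelial factors is claimed.

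The levels of the 10 genes can be ordered per length, as units per kilobase of annotated exon. That length merges all annotated exons of a gene, 4743 bases for Vim and 19942 for Zeb2, and is not the length of 1 transcript. The order, and the ratios per length given here, depend on it. Vim led with a median over the 8 libraries of 5681 (range 3987 to 6819), in the 99.4th percentile of all genes with a length. Esrp1 followed at 423 (386 to 518), then Twist1 at 280 (273 to 328), Snai1 at 219 (183 to 257), Grhl2 at 142 (135 to 163) and Esrp2 at 124 (107 to 173). Zeb2 at 36.1 (29.6 to 42.8) and Ovol1 at 28.2 (20.6 to 39.2) came next, and Zeb1 at 1.66 (0.892 to 2.17) and Snai2 at 1.49 (0.675 to 1.94) were last. The ranges of Grhl2 and Esrp2 overlapped, as did those of Zeb2 and Ovol1 and those of Zeb1 and Snai2, so these neighbours are not ordered. The ranges of the other neighbours did not overlap. The cultures thus held RNA of both kinds, with Twist1 and Snai1 between Esrp1 and Grhl2 in both arms. Vim per length stood at 0.516 to 0.696 times Krt8, the simple-epithelial keratin gene, and was lower against it with acetate in 3 of 4 pairs. In units not divided by length, Vim exceeded Krt8 in every library, at 18911 to 32341 against 15118 to 19173. Which of the 2 was the more abundant RNA thus depends on the length used.

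**Figure D3:**
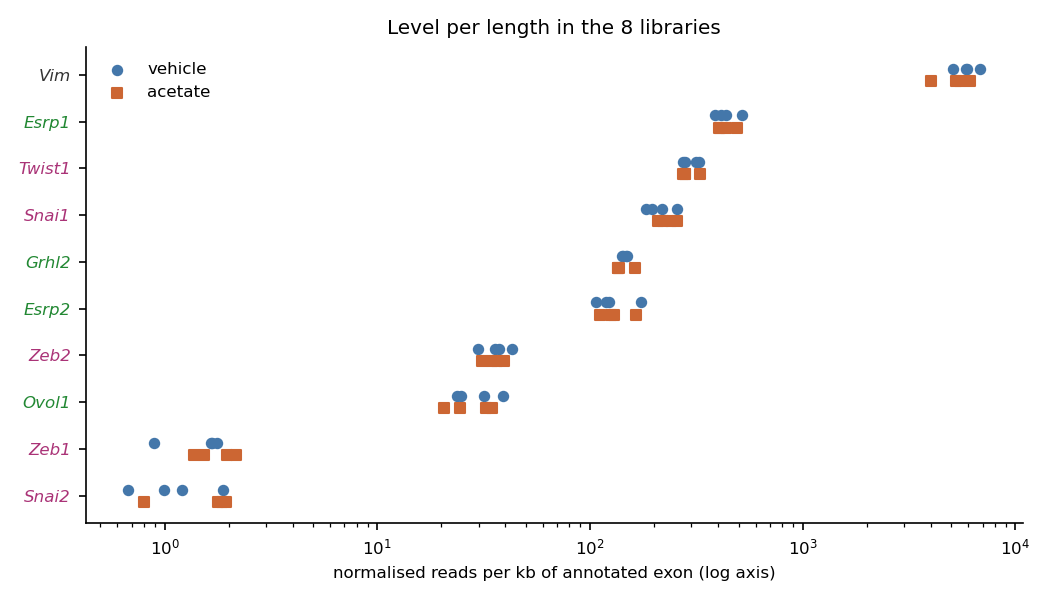
Level per length (units per kilobase of annotated exon, log axis) of each gene in the 4 vehicle (circles) and 4 acetate (squares) libraries, in order of the median. The points of Vim lie between 3987 and 6819 and those of Snai2 between 0.675 and 1.94, and within each gene the vehicle and acetate points overlap.

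The replicates also differed from each other. The F-test of the replicate terms in the same limma fit called 7 of the 10 genes, beside 58.2% of all genes: Zeb2 (adjusted p = 4.03e-04), Snai1 (0.00571), Twist1 (0.0310), Ovol1 (0.00255), Esrp1 (1.19e-04), Esrp2 (3.69e-04) and Vim (2.55e-05). Grhl2 was not called (0.0732), and neither were Zeb1 (0.332) and Snai2 (0.625). The range between the 4 replicate means ran from 0.18 for Grhl2 to 0.70 for Snai2 and Ovol1 on the log2 scale, beside a median of 0.50 over the 10292 genes with a mean of at least 100 units. A range of 4 means of 2 libraries is not on the same footing as a difference of 2 means of 4, so the sizes of the ranges and of the acetate changes are not compared here.

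The genes did not share one order of replicates. Replicate 1 was 0.38 above the mean of the 4 replicates for Ovol1 and 0.37 above it for Esrp2, and 0.29 below it for Vim (-0.29). Replicate 3 was the highest for Zeb2 (0.20), Snai1 (0.22) and Vim (0.23), and replicate 4 the highest for Esrp1 (0.22) and Grhl2 (0.12). With replicate 1 left out, 5 of the 10 genes were still called, Esrp2 (adjusted p = 0.579) and Twist1 (adjusted p = 0.0537) being lost. Leaving out another replicate lost Twist1 (replicate 2, adjusted p = 0.393), Snai1 (replicate 3, adjusted p = 0.0968), or Esrp1 and Twist1 (replicate 4, adjusted p = 0.0679 and 0.0678). What distinguished the replicates was not tested.

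**Figure D4:**
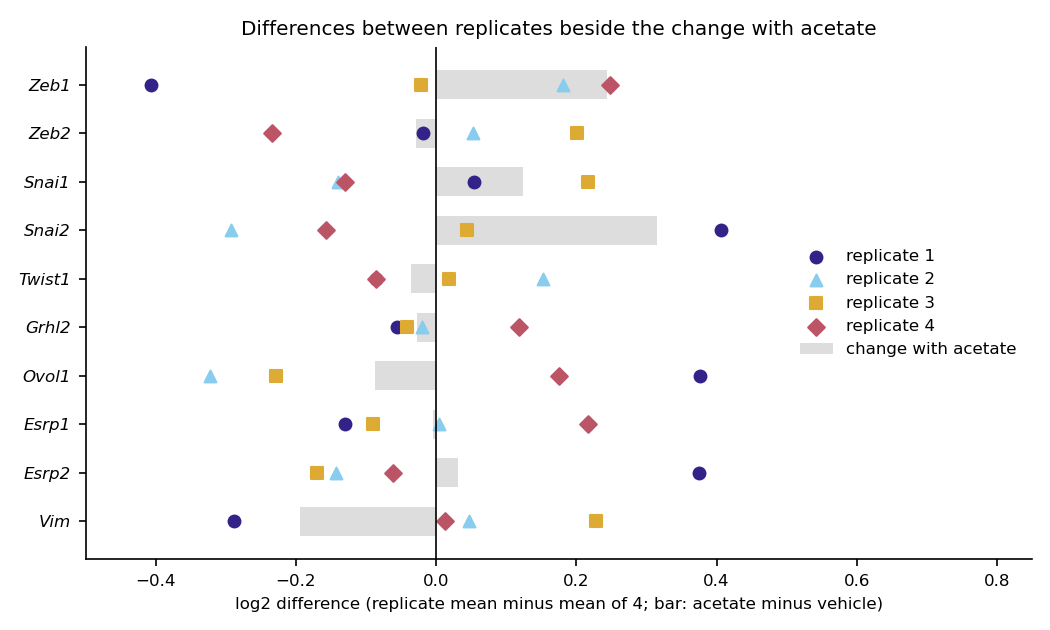
Mean of each replicate (both arms, log2 of units + 1) minus the mean of the 4 replicates, as symbols, with the change with acetate as a grey bar on the same axis. The symbol of replicate 1 lies highest for Ovol1 and Esrp2 and lowest for Vim. The spread of the symbols and the length of the bars are not on the same footing and are not compared.

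Across the 8 libraries, which share these replicate differences, Vim was low where Esrp2 was high (Pearson r = -0.76) and where Ovol1 was high (-0.60), but was not related in this way to Esrp1 (0.14). Zeb2 went against Esrp1 (-0.76) and Twist1 against Ovol1 (-0.83), while Grhl2 went with Esrp1 (0.73) and Ovol1 with Esrp2 (0.72). Other pairs of the same kinds went the opposite way: the driver Zeb1 went with Esrp1 (0.64) and Grhl2 (0.42) and Snai2 with Ovol1 (0.52), and Esrp2 went against Esrp1 (-0.39) and Grhl2 (-0.29). These values are a description of 8 points from 4 experiments. By the same measure the genes most like Vim among 10829 others were AC093020.1 (0.979), Tmem250-ps (0.963) and Wdr25 (0.956). Those most like Zeb2 were Gas2l1 (0.988), Pdgfa (0.979) and Zbtb14 (0.973), and those most like Esrp1 were Atp6ap2 (0.975), Fos (0.975) and Chm (0.974). For Twist1 they were Eif2ak4 (0.948), Klhl12 (0.947) and Rsrc2 (0.942), for Snai1 Galk1 (0.936), Manf (0.912) and Ssbp4 (0.906), and for Zeb1 Fkbp7 (0.954), Asic1 (0.938) and Snx30 (0.937). For Grhl2 they were Smad5 (0.959), Arih1 (0.940) and Trak1 (0.930), for Ovol1 Traf6 (0.971), Rbm3 (0.960) and Mtmr2 (0.956), and for Esrp2 Impad1 (0.979), Cubn (0.978) and Cmpk1 (0.977).

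Other transcription factors of both programs were called about as often as genes at large, 1 of 14 in each list beside 8.64% of all genes. Of the 14 further EMT factors with a row in the table, of 16 listed, 0 were called higher and 1 lower (median change 0.05). That gene was Hmga2, a chromatin factor, at 6670, 5968, 6143 and 6093 units with vehicle and 5904, 5456, 5450 and 6083 with acetate (-0.12, SE 0.03, limma adjusted p = 0.0389). The next by p, Klf8 (0.27, adjusted p = 0.180) and Sox4 (0.08, adjusted p = 0.181), missed the threshold. The Hmga2 call was lost without replicate 1, 2 or 3 (limma adjusted p = 0.112 to 0.234) and with a pseudocount of 0.1 (0.0624).

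Of the 14 further epithelial factors in the table, of 16 listed, 1 was called higher and 0 lower (median 0.09). Elf3, an ETS factor of epithelia, held 366, 538, 508 and 730 units with vehicle and 458, 672, 640 and 788 with acetate, higher in 4 of 4 pairs as were 16.7% of all genes (0.27, SE 0.05, limma adjusted p = 0.00628). Without replicate 2 or 3 its adjusted p was 0.0551 or 0.0780. Tfap2c (0.70, SE 0.21, adjusted p = 0.0605) and Klf4 (-0.18, SE 0.06, adjusted p = 0.0821) came next and were not called.

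RNA-binding proteins that work beside ESRP1 and ESRP2 included 2 that were called lower. Of 12 splicing factors, 0 were called higher and 2 lower, with a median of -0.03. Over all genes, 5.99% were called higher and 2.65% lower. Mbnl3 and Mbnl1 encode muscleblind splicing factors. Mbnl3 fell from 1288, 1185, 1199 and 1088 units with vehicle to 1078, 1067, 1056 and 887 with acetate, a change of -0.22 (SE 0.04, limma adjusted p = 0.00413) in which the groups did not overlap, as in 1.65% of all genes. Mbnl1 changed by -0.18 (SE 0.03, limma adjusted p = 0.00465), and was not called without replicate 3 (adjusted p = 0.0689). Ptbp1 changed by -0.08 (adjusted p = 0.0715). Among 10 genes known to be spliced under ESRP control, counted here at the gene level and not by isoform, 1 was called higher and 0 lower (median 0.05). This share is near the 8.64% called over all genes. The called gene was Enah, an actin regulator, at 1585, 2241, 2248 and 2382 units with vehicle and 2127, 2745, 2657 and 2654 with acetate (0.28, SE 0.04, limma adjusted p = 0.00193). Nf2, or merlin, and Magi1, a junction scaffold, had the next smallest p and were not called, at 0.10 (SE 0.03, adjusted p = 0.0771) and 0.09 (SE 0.04, adjusted p = 0.161), each higher in 4 of 4 pairs.

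Epithelial genes that ZEB, SNAIL and TWIST proteins are known to repress included 5 called genes. Of these 15 genes, 4 were called higher (Cdh1, Cdh3, Cldn4 and Dsp) and 1 lower (Pkp3), with a median of 0.07. Over all genes, 5.99% were called higher and 2.65% lower. Pkp3 changed by -0.15 and Dsp by 0.12 (limma adjusted p = 0.0110 and 0.0280). Cldn4, a claudin of tight junctions, held 2617, 4640, 3628 and 6416 units with vehicle and 3469, 5530, 4344 and 7890 with acetate, higher in 4 of 4 pairs (0.30, SE 0.03, limma adjusted p = 3.19e-04). Cdh3, or P-cadherin, changed by 0.86 (SE 0.13, limma adjusted p = 0.00260) at 18.3 to 89.7 units. Cdh1 held 6534, 5310, 5485 and 6760 units with vehicle and 7573, 5984, 6078 and 7167 with acetate (0.15, SE 0.03, limma adjusted p = 0.00592), and was not called without replicate 2 or 3 (adjusted p = 0.0580 and 0.0689). The list had 5, 2, 2 and 3 calls without replicates 1 to 4.

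Vim can be set beside the other mesenchymal marker genes. Of the 15 in the table, of 20 listed, 7 were called higher (Fn1, S100a4, Sparc, Itga5, Pdgfra, Pdgfrb and Col1a1) and 2 lower (Axl and Tnc), with a median of 0.28. In all, 9 of the 15 were called (60.0%), beside 8.64% of all genes, in a list chosen with earlier results of these data known. Calls higher with acetate were 7 of 9 in this list, beside 69.3% of all called genes. The study itself singled out Col1a1, Sparc and Itga5 in these cells, and it reports an EMT gene set as the highest-scoring with acetate in these libraries. The direction of this list is therefore not independent evidence, and Pdgfra and Pdgfrb are also on the fibroblast list. Fn1, or fibronectin, ran from 37959 to 88622 units with vehicle and from 43968 to 109160.5 with acetate and was higher in 4 of 4 pairs (0.28, SE 0.03, limma adjusted p = 3.38e-04). Col1a1, a fibrillar collagen chain, held 9.92, 34.996, 48.3 and 59.4 units with vehicle and 22.8, 109.8, 99.1 and 127.2 with acetate (1.21, SE 0.15, limma adjusted p = 7.61e-04). Pdgfra, a growth factor receptor, changed by 0.52 (SE 0.06, limma adjusted p = 3.72e-04). The list had 9, 6, 4 and 6 calls without replicates 1 to 4.

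Among the other intermediate filament and lamin genes, 8 in the table of 11 listed, 1 was called in each direction (median 0.10). Over all genes, 5.99% were called higher and 2.65% lower. Lmna, which encodes lamins A and C, fell like Vim in 4 of 4 pairs, from 24068, 20069.9, 24303 and 17650.5 units with vehicle to 21462, 16974, 20176 and 14656 with acetate (-0.24, SE 0.03, limma adjusted p = 4.38e-04). Nes, or nestin, which assembles with vimentin, went the other way in 4 of 4 pairs, from 3938 to 5744 units with vehicle and 4425 to 6204 with acetate (0.16, SE 0.03, limma adjusted p = 0.00360). Prph, at most 28 reads in a library, was not called (0.78, adjusted p = 0.194).

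Corepressors and stability regulators of the drivers, 21 in the table of 22 listed, had 2 calls higher (Hdac1 and Kdm1a) and 1 lower (Ctbp1), with a median of 0.01. That is 14.3% called, beside 8.64% of all genes. Hdac1, a histone deacetylase in SNAIL corepressor complexes, held 2415, 2492, 2278 and 2473 units with vehicle and 2803, 2879, 2821 and 2860 with acetate, with no overlap (0.24, SE 0.03, limma adjusted p = 9.52e-04). Ctbp1, a ZEB corepressor, changed by -0.12 (SE 0.03, limma adjusted p = 0.0127) and was not called without replicate 2, 3 or 4 (adjusted p = 0.0601 to 0.0843). Kdm1a, the demethylase LSD1, changed by 0.12 (SE 0.03, limma adjusted p = 0.0373) and was not called when any 1 replicate was left out (adjusted p = 0.0683 to 0.220), nor by edgeR or DESeq2. Without the block, 0 genes of any of these lists were called by limma, as over the whole table, where 353 genes (1.75%) had an unadjusted p under 0.05.

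**Figure D5:**
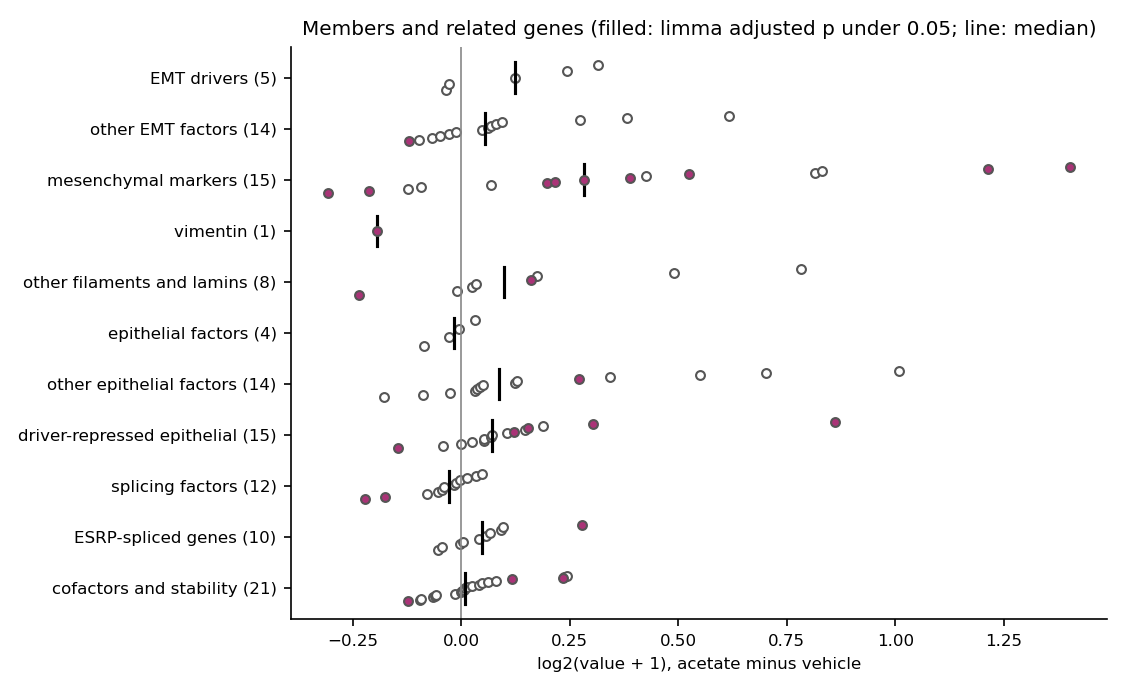
Log2 change with acetate (acetate minus vehicle, log2 of units + 1) of the 10 genes and of related genes by list, with the number of genes in the table in parentheses. Filled points passed an adjusted p of 0.05 in limma and black lines are medians, from -0.19 (Vim alone) to 0.28 for the mesenchymal markers, with the 5 drivers at 0.12 and the 4 epithelial factors at -0.02.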

How the data were processed

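RNA of 8 4T1 cultures (4 vehicle, 4 acetate, 5 mM, 48 h) was made into libraries with a stranded mRNA kit. Per the submitters' processing notes, reads were handled with STAR and HTSeq on GRCm38 (mm10). Versions and the strand setting are not given in the sources used here. The authors deposited a normalised signal per gene, read counts scaled to 20000000 per library. According to the methods, genes expressed in too few samples were removed, and each of the 20189 genes was above 0 in at least 4 libraries. All values of all 8 libraries were whole multiples of 1 read (tolerance 0.01), so 19895088 to 29305620 counted reads per library were recovered. Of the gene identifiers, 20004 matched a symbol. Coordinates and exon lengths are GENCODE M21 (GRCm38), and promoters are RefSeq. Of the 10 members, Vim, Zeb2, Snai1 and Twist1 matched the promoter table.

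Groups came from the sample titles. The main test was limma 3.58.1 in R 4.3.3 (lmFit, eBayes with trend) on log2(value + 1) over all genes with group and replicate number, two-sided, Benjamini-Hochberg adjusted. The number pairs libraries because the labels give same-numbered libraries 1 experiment code, and their deviations from the group means correlated at 0.938, 0.662, 0.539 and 0.913. The highest correlation with a library of another number was -0.447, 0.515, 0.515 and 0.491 for replicates 1 to 4, so for replicate 3 the pair stood little above another library. The study reports gene set enrichment on these libraries and qPCR of EMT genes after acetate, but no test per gene on this table. Alternatives were no replicate block, pseudocounts of 0.1 and 5, a filter at a mean of 10 units, median-of-ratios and quantile scaling, leaving out each pair, and edgeR 4.0.16 and DESeq2 1.42.0 on the recovered read counts with the block. An edgeR fit without vehicle replicate 3 was added after seeing the data, because 1 read is worth slightly over 1 unit there. The limma step was tested on simulated data.

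Members and lists were chosen with earlier results of these data known. All members are named, and from each other list the 3 genes with the smallest p are named, beside called genes listed with their counts and Cd68, which was chosen after its values were seen. The likeness measure was Pearson correlation of log2 values over genes with a mean of at least 64 units, for members with a mean of at least 10. Intervals on counts are not given, and counting error is only part of the spread.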

Additional observations from a re-analysis of the deposited data

Results flagged for a closer look

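In groups of 4 libraries, the gap between an extreme library and its nearest neighbour was set against the whole range of the group (Dixon's ratio, judged at its 95% critical value). Of 88 groups tested over 44 genes, 14 exceeded it, where chance gives about 1 in 20, or 4.4.

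Among the 10 genes, 4 groups did. Zeb1 was lowest in vehicle 1, at 9.16 units against 17.1 to 18.1 in the others (ratio 0.884). Snai2 was lowest in acetate 2, at 1.62 units against 3.59 to 3.92 (0.857). Twist1 was highest in acetate 2, at 535 units against 447 to 456 (0.900), and Grhl2 was highest in acetate 4, at 1402 units against 1162 to 1176 (0.940).

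Among related genes, 7 of the remaining 10 concerned replicate 1. Ptbp1 was highest there in vehicle (0.866) and in acetate (0.841), and so was Ctbp1 (0.879 and 0.856). In acetate 1, Mbnl1 was highest (0.891), and Enah (0.852) and Cdh3 (0.894) were lowest. The others were Klf8 highest in vehicle 3 (0.856), Mbnl3 lowest in acetate 4 (0.883) and Pdpn, which had 1 read in vehicle 4 and 0 in the other vehicle libraries (1.0).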

How the results depend on the processing

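The blocked limma fit called 1744 genes of the table and 1 of the 10 members. Without the replicate block it called 0 and 0, and Vim stayed at -0.19 with an adjusted p of 1.00. DESeq2 called 1126 genes. Leaving out each replicate in turn gave 409 to 1662 calls over the table (1662, 617, 409 and 539 without replicates 1 to 4), 0 to 1 calls among members, and -0.22 to -0.14 for Vim. Vim was called under every alternative but the fit without the block and those without replicate 3 or 4, with adjusted p from 3.79e-05 to 1.00 over all alternatives. With a replicate left out, estimates near 0 changed sign: they ran from -0.0607 to 0.00369 for Zeb2, -0.0573 to 0.01005 for Twist1, -0.0791 to 0.000256 for Grhl2, -0.0348 to 0.0173 for Esrp1 and -0.0489 to 0.0705 for Esrp2, none of them called. Estimates that kept their sign moved by over 1.5 times: Zeb1 ran from 0.09 to 0.44, Snai2 from 0.10 to 0.55, Snai1 from 0.08 to 0.17 and Ovol1 from -0.14 to -0.03. The replicate terms called 6199 to 11610 genes, the lowest without replicate 1, against 11746. Median-of-ratios scaling moved the split of calls from 1209 higher and 535 lower to 1000 and 821, and edgeR called 1314 and 1086. The cause was not tested. The filter at 10 units removed Snai2, and DESeq2 gave no adjusted p for Snai2 and Zeb1. The 3 genes with the smallest p of each list included 19 called genes. Of these, 17, 13, 12 and 16 were still called without replicates 1 to 4, and 0 turned sign under any alternative. Dsp, Pkp3, S100a4, Sparc, Itga5, Axl and Tnc, named above as called, are not in this count. Pdgfrb (1.40) was lost without replicate 2 or 3, with a pseudocount of 0.1 (2.19, adjusted p = 0.0802) and in edgeR without vehicle replicate 3 (1.02, adjusted p = 0.0519), and DESeq2 gave it no adjusted p. Csf1r was lost without replicate 4. Depth limits Zeb1 and Snai2, at no more than 31 and 5 reads.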
